A study of Mus musculus with 12 samples.

Results

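Txnip and Gm15441 are a pair of genes on opposite strands of a single locus of mouse chromosome 3, and in liver their RNA moved in opposite directions when mice lacking PXR ate a high-fat diet (HFD). Txnip averaged 1724 ± 388 normalized counts in chow-fed mice and 3453 ± 1097 in HFD-fed mice, 2.0-fold higher. Gm15441 averaged 119.9 ± 13.9 normalized counts on chow and 24.0 ± 12.9 on HFD, 5.0-fold lower (SD, n = 3 mice per group throughout). The members are the 2 rows, of 336 in the authors' deposited HFD against chow table, whose symbol is Txnip or Gm15441. They were chosen by their measured HFD against chow changes, opposite at the 1 locus, so their levels are a description and carry no test.

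RNA was sequenced from livers of C57BL/6N mice labelled PXR deficient, in 4 groups of 3 mice with 1 library per mouse. PXR, the pregnane X receptor, is a nuclear receptor that senses drugs and steroids, and every group lacks it, the chow-fed controls included; the labels give no sex and do not say how the gene was disrupted. Diets, regular chow or HFD, began at 6 weeks of age and lasted 18 weeks. The chow and HFD groups received no treatment. Of the other HFD-fed groups, the vehicle group was injected intraperitoneally with 30% DMSO in corn oil and the PCN group with 50 mg/kg PCN (pregnenolone-16alpha-carbonitrile, a ligand of rodent PXR), once a day for 4 days. Mice are named by group and number as in the labels. Normalized counts are raw read counts divided by the authors' size factor for that mouse, and levels are compared within a gene unless given per kilobase (kb) of exon.

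Txnip encodes thioredoxin-interacting protein, an alpha-arrestin that binds thioredoxin, lowers glucose uptake by driving glucose transporters off the cell surface, and has been tied to the NLRP3 inflammasome. Its transcription follows cellular sugar through the factors ChREBP (Mlxipl) and MondoA (Mlxip), which bind carbohydrate response elements together with Mlx. Gm15441 is a long non-coding RNA gene known in mouse liver as a target of PPARalpha, the fasting and fatty acid receptor, and has been described as lowering Txnip. These statements are background and were not tested here.

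On GRCm38, Txnip (ENSMUSG00000038393) lies on the plus strand at chr3:96557957-96561883 and Gm15441 (ENSMUSG00000074398) on the minus strand at chr3:96555765-96566801. The whole of Txnip therefore falls inside the span of Gm15441. In the GENCODE M21 annotation Gm15441, typed antisense, has 2 transcripts. The longer, of 1653 bases, starts beyond the 3′ end of Txnip and reads back through it. Its exon 2, at chr3:96559678-96559842, sits entirely within coding exon 5 of the 2827-base Txnip transcript, and its exon 3 covers 441 bases of Txnip exon 1, of which 279 are 5′ untranslated and 162 coding. The shorter, of 659 bases, lies wholly before the Txnip start and shares no exonic base with it. In all, 606 exonic bases are common to both genes, 19.4% of the 3123 exonic bases of Txnip and 36.2% of the 1676 of Gm15441. Whether the counting used strand is not given in the sources used here. Without strand, reads from those shared bases cannot be told apart, so both genes' counts are uncertain to that extent.

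**Figure D1:**
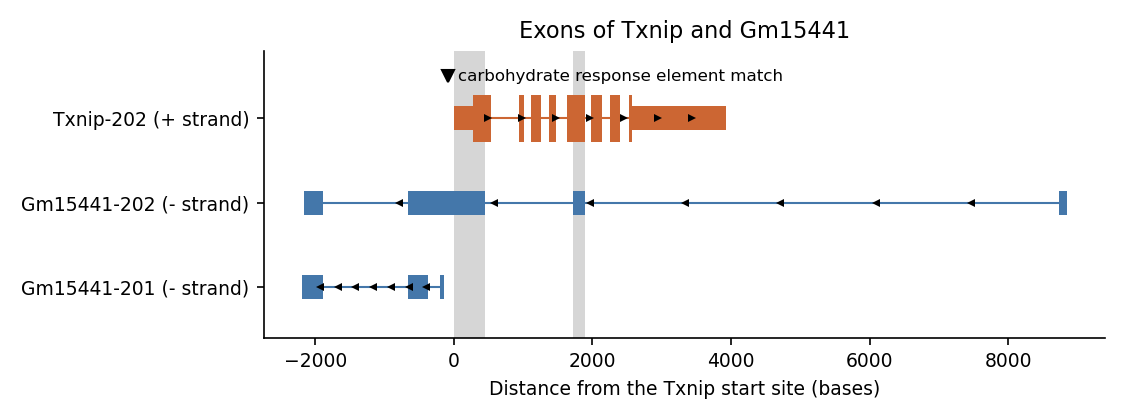
Exons of the 2827-base Txnip transcript and both Gm15441 transcripts against distance from the Txnip start site in bases; thick boxes are exons, the tallest boxes of Txnip are coding, arrowheads give the direction of transcription and grey bands mark bases that are exonic in both genes. The bands cover 441 bases at the start of Txnip and 165 bases in its exon 5, and the shorter Gm15441 transcript reaches neither band.

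The sequences below are shown because they hold the stretch before the Txnip start and bases annotated as exonic on both strands; pairing of the RNAs was not measured. The first is the stretch before the Txnip start, plus strand, chr3:96557707-96557956 (RefSeq, GRCm38.p6). Capitals mark, in order, a CCAAT box read on the minus strand, a forkhead site, the same box on the plus strand and a match to the carbohydrate response element. The second is exon 2 of the longer Gm15441 transcript from GENCODE M21, minus strand, whose reverse complement of 165 bases was found unbroken in the Txnip transcript. The last pair is the first 30 coding bases of Txnip at chr3:96558236-96558265, with the start codon in capitals, and the same bases as exon 3 of the longer Gm15441 transcript carries them.
Txnip promoter: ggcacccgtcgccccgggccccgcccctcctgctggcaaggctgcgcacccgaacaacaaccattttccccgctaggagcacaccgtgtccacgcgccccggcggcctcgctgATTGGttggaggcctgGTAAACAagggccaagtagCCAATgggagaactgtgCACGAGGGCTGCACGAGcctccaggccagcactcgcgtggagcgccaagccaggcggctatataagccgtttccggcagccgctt
Gm15441 exon 2: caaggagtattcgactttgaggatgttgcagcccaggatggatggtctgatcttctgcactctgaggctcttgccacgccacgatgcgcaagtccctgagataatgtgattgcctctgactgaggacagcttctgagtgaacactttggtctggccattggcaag
Txnip start of coding: ATGgtgatgttcaagaagatcaagtctttt
Gm15441 exon 3 opposite it: aaaagacttgatcttcttgaacatcacCAT

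All 250 promoter bases are, as their reverse complement, part of exon 3 of the longer Gm15441 transcript, and the first exon of the shorter lies among them at chr3:96557756-96557815. The carbohydrate response element was searched on both strands as a pair of CACGNG boxes 5 bases apart, in windows from 250 bases before to 50 after each start. Txnip holds 1 match, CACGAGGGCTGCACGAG, 85 to 69 bases before its start. This pattern was held by 16 of 32851 promoters in the RefSeq table (0.049%). Of the 318 promoters matched to rows of the diet table Txnip's is the only 1. The motifs were chosen after the Txnip promoter had been read, so the match and its rarity carry no test. None of the 16 other than Txnip's belongs to a gene of the pathway lists below or to a row of the diet table. Only this exact pattern was searched in these windows. Carbohydrate response elements of another form or place were not looked for in those genes. The forkhead letters GTAAACA occur in 3.65% of promoters. The CCAAT box, present in 2 places here, is in 37.4%. The PPARalpha-type element, a pair of AGGTCA boxes 1 base apart in the same direction, is in 0.04% of promoters and not in this window. These are exact letter matches without mismatches, and binding was not measured. Gm15441 has no entry of its own among these promoters, so no window was searched under its name. Its shorter transcript starts at chr3:96557815 on the minus strand. The marked sites, from chr3:96557820 to chr3:96557888, therefore lie before that start as well as before the Txnip start.

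In chow-fed mice Txnip stood at 1347 normalized counts in mouse 670, 2122 in mouse 695 and 1704 in mouse 707. In HFD-fed mice it stood at 4639 in mouse 659, 3245 in mouse 669 and 2474 in mouse 696. The groups did not overlap, but the gap was narrow, since the lowest HFD mouse was 1.17-fold above the highest chow mouse. The HFD mice also spread more, with a coefficient of variation of 31.8% against 22.5% on chow, and mouse 659 was the highest of all 6. On the log2 scale the ratio of group means was 1.0, and it was 0.73 without HFD mouse 659.

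Gm15441 gave 135.8 normalized counts in chow mouse 670, 110.4 in mouse 695 and 113.4 in mouse 707. On HFD it gave 38.9 in mouse 659, 17.2 in mouse 669 and 15.8 in mouse 696. The chow mice lay close together and all HFD mice lay far below them, the highest of them 2.84-fold under the lowest chow mouse. The raw counts behind the HFD values were 43, 16 and 18 reads. Their exact 95% Poisson intervals, which cover counting error only, ran from 31.1 to 57.9, from 9.145 to 26.0 and from 10.7 to 28.45. The order of mice 669 and 696 is within that error, while mouse 659 lies above both. On the log2 scale the ratio of group means was -2.32, and it was -2.86 without HFD mouse 659. Groups that did not overlap were the rule in this table, which holds genes the authors selected for this very difference: 99.4% of its 336 rows separated the same way.

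**Figure D2:**
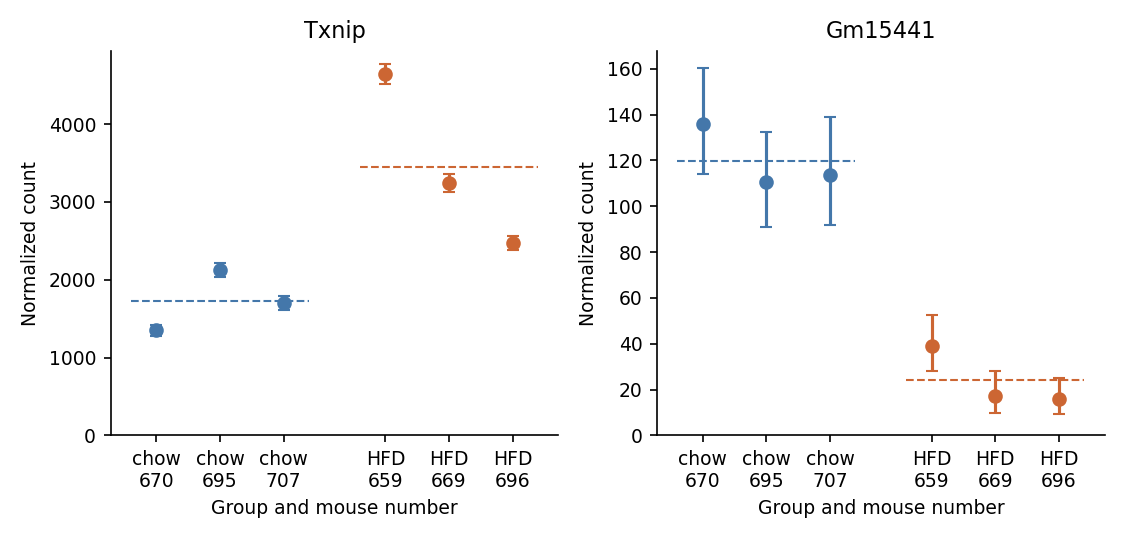
Normalized counts of Txnip and Gm15441 (linear axes from 0) in the 3 chow and 3 HFD mice; points are mice, bars exact 95% Poisson intervals of the count and dashed lines group means. Txnip ran from 1347 to 2122 on chow and from 2474 to 4639 on HFD, and Gm15441 from 110.4 to 135.8 and from 15.8 to 38.9.

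The values that chose these genes in the authors' deposited table were a log2 fold change of 0.84 (SE 0.21, adjusted p = 0.00728) for Txnip and -1.64 (SE 0.26, adjusted p = 1.61e-07) for Gm15441. By deposited fold Txnip ranked 138 of the 215 higher rows and Gm15441 3 of the 121 lower rows. Those rows are 0.86% and 0.484% of about 25014 genes tested. In deposited fold, Txnip thus changed by a moderate amount among the selected genes, and Gm15441 by close to the most in its direction. Ranks by the ratio of group means were not computed. The deposited folds are smaller than the ratios of group means, for Gm15441 by more than the spread between mice. Scaling that centres on the listed genes, most of which rose, also moved both values: with TMM over the listed genes the log2 ratios were 0.35 for Txnip and -2.99 for Gm15441, with the directions kept.

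The genes also differed in abundance. Per kb of exon, Txnip averaged 552 ± 124 normalized counts on chow and Gm15441 71.5 ± 8.28. On HFD the same levels were 1106 ± 351 and 14.3 ± 7.70. In counts, the mean rise of Txnip was 18.0 times the mean fall of Gm15441, and per kb of exon it was 9.67 times. The locus as a whole therefore gave more reads on HFD: both genes summed to 1844 ± 375 normalized counts on chow and 3477 ± 1109 on HFD, a log2 ratio of 0.92 (0.27 with TMM over the listed genes). In bulk liver, fewer cells of a type and less RNA per cell cannot be told apart.

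The relation of the genes within a mouse needs no size factor. Gm15441 made up 9.16% of the reads of both genes in chow mouse 670 (139 of 1518, exact Clopper-Pearson 95% interval 7.75% to 10.7%), 4.95% in mouse 695 (4.10% to 5.91%) and 6.24% in mouse 707 (5.07% to 7.58%). In HFD mice the share was 0.831% in mouse 659 (43 of 5176, 0.602% to 1.12%), 0.528% in mouse 669 (0.302% to 0.856%) and 0.636% in mouse 696 (0.377% to 1.0%). No interval of an HFD mouse reached that of a chow mouse, and the HFD mice could not be told apart by counting error. Chow mouse 670 stood above the other chow mice. The log2 ratio of Txnip to Gm15441 counts was 3.83 ± 0.48 on chow and 7.25 ± 0.33 on HFD, a difference of 3.42, or 10.7-fold. Leaving out each mouse in turn kept it between 3.16 and 3.64.

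**Figure D3:**
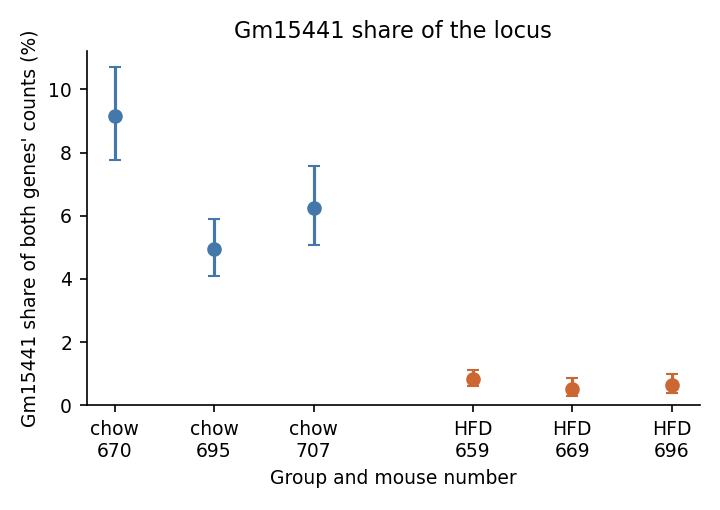
Gm15441 as a percent of the raw reads counted to both genes (linear axis from 0) in each mouse; bars are exact Clopper-Pearson 95% intervals. The chow mice sit at 4.95% to 9.16% and the HFD mice at 0.528% to 0.831%.

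The group means moved oppositely, while within a group the order of mice is only partly resolved. Among chow mice Txnip ran 695, 707, 670 from high to low and Gm15441 ran 670, 707, 695. That Gm15441 order is within counting error: the normalized 95% intervals were 114.2 to 160.4, 91.7 to 138.8 and 91.1 to 132.5 in the same order. It also depends on the size factors, since by raw counts mouse 695 (115 reads) stood above mouse 707 (94 reads). Among HFD mice both genes ran 659, 669, 696, so that mouse 659 had the most of each; for Gm15441 the order of the other 2 is within error, as given above. With 3 mice per group and a step between 2 clusters, no pooled correlation of Txnip with Gm15441 is given. The within-group orders are a description of these mice. The sum of stellate cell and fibroblast markers followed the same HFD order, an order held by 69 of the 334 other rows. The 6 of 14 among the rows, collagens and Vim, summed to 4231 in mouse 659, 3273 in mouse 669 and 2328 in mouse 696. In chow mice they summed to 977 to 1148. Of 12 macrophage markers 2 were among the rows, Itgax and Mmp12, summing to 12.5 to 25.3 on chow and 71.2 to 119.3 on HFD. Their part in the changes of Txnip and Gm15441 was not tested.

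**Figure D4:**
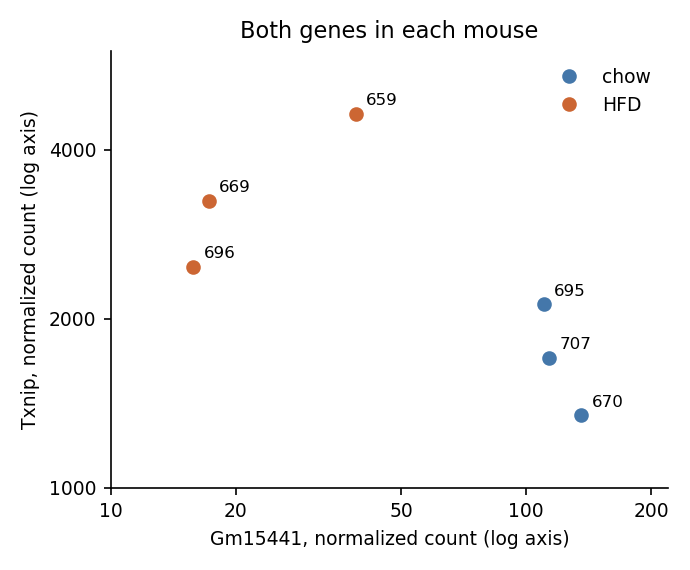
Txnip against Gm15441, normalized counts on log axes, for the 3 chow and 3 HFD mice labelled by number. The chow mice lie close together in Gm15441, within its counting error, and spread in Txnip, while mouse 659 is highest in both genes among the HFD mice.

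The genes around the pair were next read from 7 lists of 133 genes in all. By the authors' test, 6 of them were higher and 6 lower on HFD, and the rest were not among the rows, which hold selected genes only. The counts read against 0.86% of tested genes called higher and 0.484% called lower, and nothing particular to the lists was tested. In a refit with edgeR's quasi-likelihood test, using the recovered size factors and a Benjamini-Hochberg adjustment over about 25014 genes, 0 of the 12 passed in either direction (smallest adjusted p = 0.156), although all 12 were under 0.05 unadjusted. DESeq2 refitted to the listed genes called 0 higher and 6 lower. Its size factors came from the 336 selected rows, 215 of them higher. With them the log2 ratio moved from 1.0 to 0.35 for Txnip and from -2.32 to -2.99 for Gm15441. That shift favours lower calls over higher ones, so the split does not show which calls are sturdier.

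Of 25 sugar-response genes and their factors, 6 rose and 0 fell in the authors' table (median deposited log2 fold change 0.79). The median over all rows, 0.77, mixes 215 higher and 121 lower rows and is no like comparator. Txnip at 0.84 ranked 138 of the 215 higher rows, so 0.79 stood in their lower part. Medians over the higher or the lower rows alone were not computed. Thrsp, which encodes a lipogenic nuclear protein, went from 107.5, 761 and 181 in chow mice 670, 695 and 707 to 3796, 2763 and 3978 in HFD mice 659, 669 and 696, a log2 ratio of group means of 3.33. Its log2 fold change in the authors' deposited table was 0.95 (SE 0.27). It spread widely on chow, and without chow mouse 695 the chow mean fell from 349.9 to 144.3 and the log2 ratio became 4.61, 2.43 times the fold. Pklr, the liver pyruvate kinase gene, rose 2.04-fold, from 1421 ± 597 to 2897 ± 696. Slc2a2, which encodes the hepatocyte glucose transporter GLUT2, rose 1.86-fold, from 3830 ± 1462 to 7129 ± 739. The lipogenic enzyme genes Fasn, Elovl6 and Scd1 rose 1.91-fold, 1.95-fold and 1.64-fold. Elovl6 overlaps the row Gm43072 on the same strand, which also rose, so its counts are uncertain. The chow order of Txnip was that of Thrsp, Pklr and Slc2a2 but not of Fasn, Elovl6 or Scd1; it was also that of Plin5 and Acot1, which fell, and of 81 of the 334 other rows. Neither the factors Mlxipl, Mlxip and Mlx nor the Txnip paralogue Arrdc4 was among the rows. At the authors' adjusted p under 0.01 the 6 became 1, Scd1.

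Of 33 genes of PPARalpha and its targets, 5 fell and 0 rose (median deposited log2 fold change -1.26). Ehhadh, the peroxisomal bifunctional enzyme gene, stood at 44152 in chow mouse 670, 15463 in mouse 695 and 24086 in mouse 707, and at 8174, 6070 and 5228 in HFD mice 659, 669 and 696. Cyp4a14, a fatty acid omega-hydroxylase gene, stood at 96462, 53670 and 77005 on chow and at 31258, 23313 and 13396 on HFD. Falls by group means were 4.30-fold for Ehhadh and 3.34-fold for Cyp4a14, beside 5.0-fold for Gm15441. Cyp4a31, of the same family, fell 3.22-fold, the acyl-CoA thioesterase gene Acot1 2.04-fold and the lipid droplet coat gene Plin5 1.85-fold. Ehhadh and Cyp4a14 had the order of mice of Gm15441 on both diets and the other 3 did not, but the Gm15441 counts do not resolve that order among the chow mice or between HFD mice 669 and 696. It was shared on both diets by 20 of the 334 other rows (5.99%), among them Col1a1 and Col1a2, which rose, and the Txnip order by 10 (2.99%).

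**Figure D5:**
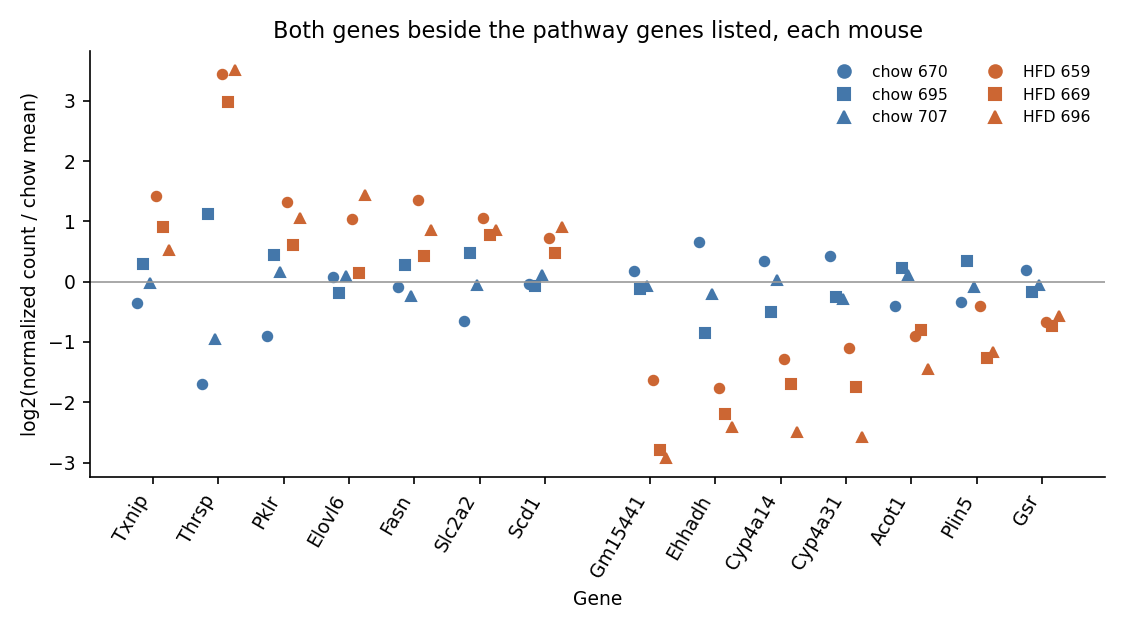
Each mouse's normalized count over the chow mean on a log2 axis, for Txnip beside the 6 sugar-response genes listed, and for Gm15441 beside the 5 PPARalpha genes and Gsr; colours are diets and marker shapes mice. HFD mice sit above chow mice for every gene on the left and below them for every gene on the right, and Gm15441 and Ehhadh fell the most by group means.

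On the list of 21 genes of the thioredoxin and peroxiredoxin system, 1 fell and 0 rose. It was Gsr, which encodes glutathione reductase, at 2509, 1955 and 2113 on chow and 1380, 1319 and 1483 on HFD, 1.57-fold lower. Txn1, the thioredoxin gene, and Txnrd1 were not among the rows. The lists of 9 arrestin genes, 17 inflammasome and interleukin-1 genes and 17 FOXO and glucocorticoid receptor genes had 0 rows, so neither Nlrp3, Casp1 nor Il1b could be set beside Txnip. Of 16 glucose transporter and insulin signalling genes, Slc2a2 was the 1 listed.

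The rows whose pattern over the 6 mice was most like Txnip, by Pearson r of log2(normalized count + 1), were Aqp8, which encodes aquaporin-8 (r = 0.987), Fnip2, which encodes a folliculin-interacting protein (r = 0.976), and Gdf15, a stress-induced cytokine gene (r = 0.966). Aqp8 stood at 147.5, 300.5 and 169.0 on chow and 761, 501 and 369 on HFD, with mouse 695 and mouse 659 highest on their diets as for Txnip. For Gm15441 the most alike were Hsdl2 (r = 0.996), Bin1 (r = 0.995) and the glycerol kinase gene Gk (r = 0.994). Gk stood at 4431, 3827 and 4122 on chow and 2601, 2137 and 1959 on HFD. All rows were selected on this same diet difference. For deviations from the group means, over the same 6 mice and libraries, r was 0.956, 0.920 and 0.886 for the Txnip set. For the Gm15441 set it was 0.966, 0.951 and 0.943. These rows were picked for the highest r among 310, so neither r carries a test. Of the 334 other rows 37 had r over 0.9 with Txnip and 64 with Gm15441, and for deviations 7 and 8. The Gm15441 deviations also rest on 16 to 43 reads on HFD and on a chow order within counting error.

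Of 4 pairs of rows that overlap on the genome, Gm43072 with Elovl6 shares a strand and 3 lie on opposite strands. Txnip with Gm15441 was the 1 pair whose members moved in opposite directions; Ccdc57 with Gm11773 and Cyp21a2-ps with Tnxb both rose together. The next row along chromosome 3 from Txnip is Chd1l, 998859 bases away, and 56 protein-coding genes nearer to Txnip were not among the rows. Neither Txnip nor Gm15441 was among the 33 rows of the PCN against vehicle table, so their levels in those mice were not analysed here. Of the 133 pathway genes, 1 was called there, at a background of 0.0672% called higher: Tat, a tyrosine catabolism and glucocorticoid-responsive gene, at 15569, 11373 and 11469 with vehicle and 32279, 19666 and 19133 with PCN, 1.85-fold higher. The call was lost at an adjusted p under 0.01 and in every refit, where 0 pathway genes passed after adjustment. The unadjusted p was 0.00616 with edgeR on the recovered size factors, adjusted over about 25288 genes, 0.167 with edgeR and TMM and 0.325 with DESeq2. TMM and DESeq2 scaled on the 33 selected rows, 21 of them higher, which works against a rise. Their loss of the call therefore cannot decide about Tat.

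Library depth is unknown, since the tables hold selected rows; counts summed over the diet rows ran from 547431 to 920106 per mouse and the size factors from 0.8286 to 1.1372. None of 10 hepatocyte markers (Alb, Ttr and others) was among the rows, and neither was Nr1i2, the PXR gene, so tissue and genotype were not checked here. Markers of lymphocytes, endothelial cells, cholangiocytes and adipocytes were not among the rows either.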

How the data were processed

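Liver RNA of 12 mice was analysed from 2 deposited tables. Each gives, per the file headers, a raw count for every gene and mouse, with the authors' mean, log2 fold change and its error, and p-values before and after adjustment. HISAT2, HTSeq and DESeq2, with GRCm38 (mm10), are named per the submitters' processing notes; whether counting used strand is not given in the sources used. The members and gene lists were chosen with earlier results of these data known, and the motifs after the promoter had been read.

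Each mouse's size factor was solved from the deposited mean of normalized counts (largest gap 0.0051 counts). The tables hold 336 and 33 selected genes, with an absolute log2 fold of at least 0.6. The Benjamini-Hochberg relation of p to adjusted p gave about 25014 and 25288 genes tested. "Rose" and "fell" mean an adjusted p under 0.05 in the authors' test. The p-values set the difference between groups against the spread between these mice. edgeR 4.0.16 (quasi-likelihood, tested on simulated data) and DESeq2 1.42.0 refits in R 4.3.3 were alternatives. The edgeR and DESeq2 refits see selected genes only. All 336 row IDs were found in GENCODE M21, 322 with identical coordinates.

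Genes named were both members, list genes among the rows and, for each member, the 3 rows with the highest r (name not predicted, mean count at least 10). The collagen genes that share an order of mice, Chd1l, the overlapping pairs and genes named as not listed were named after the values were seen.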

Additional observations from a re-analysis of the deposited data

How the results depend on the processing

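Leaving out each mouse in turn, the log2 ratio of HFD to chow ran from 0.73 to 1.19 for Txnip, from -2.86 to -2.10 for Gm15441 and from 0.64 to 1.11 for their sum, and the difference in log2 ratio of Txnip to Gm15441 from 3.16 to 3.64. Scaling mattered more than any mouse: with TMM over the listed genes the log2 ratios were 0.35, -2.99 and 0.27, and with DESeq2 size factors over the listed genes 0.35, -2.99 and 0.26. Those factors centre on genes selected for having changed. The deposited log2 fold change of Gm15441 was -1.64; the cause of that gap was not tested. Raw counts, log means and the edgeR fit moved these values by less than the spread between mice, and no alternative reversed a direction. Of the 6 pathway genes higher on HFD, 1 was called at the authors' adjusted p under 0.01, 0 by edgeR with recovered size factors, 1 by edgeR with TMM (Thrsp) and 0 by DESeq2 (1 unadjusted). Of the 6 lower genes 5 were called at the authors' adjusted p under 0.01, 0 by edgeR with recovered size factors, 6 by edgeR with TMM and 6 by DESeq2. TMM and DESeq2 scaled on the listed genes, most of which rose, and that favours lower calls over higher ones. The adjustments also differed. Calls by edgeR with TMM were adjusted over the listed genes only, and those by the other refits over about 25014 genes. These counts are therefore not like for like. Chosen after seeing the data, leaving out each mouse in turn moved the fold of Thrsp 2.43 times (without chow mouse 695), the most of the 12 pathway genes. The edgeR counts without 1 mouse ran from 0 to 1 higher, the 1 being without chow mouse 695, and 0 to 0 lower. For PCN the 1 call became 0 at an adjusted p under 0.01, with both edgeR settings (unadjusted p = 0.00616 and 0.167) and with DESeq2 (0.325). TMM and DESeq2 scaled there on the 33 selected rows, so their loss of the call cannot decide about Tat. Depth limits Gm15441 on HFD, at 16 to 43 reads. No paired analysis was possible because the groups share no mouse numbers.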
